A study of Homo sapiens with 6 samples.

Results

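Transcripts of 10 genes around the translation initiation factor eIF2 were followed in MiaPaCa-2 cells deprived of glucose. They encode the eIF2alpha subunit (EIF2S1), 3 of the kinases that phosphorylate it, HRI (EIF2AK1), PKR (EIF2AK2) and GCN2 (EIF2AK4), the constitutive phosphatase subunit CReP (PPP1R15B) and the 5 subunits of the exchange factor eIF2B (EIF2B1 to EIF2B5). The genes were chosen by name and not by a rule on their values, although earlier results of these data were known. They are the rows of a table of 60668 genes whose Ensembl identifier carries these symbols, and all 10 of 10 were found. The remaining kinase of the family, PERK (EIF2AK3), and the stress-inducible phosphatase subunit GADD34 (PPP1R15A) served for comparison.

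MiaPaCa-2 is an established human pancreatic ductal adenocarcinoma line. Cells were kept for 48 h in 25 mM glucose (control, 3 libraries) or in 2.5 mM glucose (low glucose, 3 libraries), and RNA-seq counts per gene were compared. All libraries came from this single line, with no engineered change named. The labels do not say whether the 3 samples of a condition were separate cultures (the study calls the replicates of its transcript measurements at 48 h biological), so p-values measure the spread between these samples, which may be technical. The low-glucose medium was made from glucose-free DMEM, whose general recipe does not list the glutamine that the standard DMEM contained, although low-glucose media for other assays of the study list it. Whether glutamine differed between these libraries is not stated. The treatment field gives 2.5 mM for every sample, and the 25 mM of the controls was taken from the titles and the design text.

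The eIF2 complex delivers the initiator tRNA to the ribosome and leaves with GDP. eIF2B, a decamer holding each of its subunits in a pair, exchanges that GDP for GTP, and eIF2 phosphorylated on its alpha subunit blocks eIF2B, which lowers general translation while favoring ATF4 and a few other open reading frames. HRI responds to heme shortage and mitochondrial stress, PKR to double-stranded RNA, GCN2 to uncharged tRNA and stalled ribosomes and PERK to misfolded protein in the endoplasmic reticulum. CReP and GADD34 each bring protein phosphatase 1 to eIF2alpha to remove the phosphate. Kinase activity and eIF2alpha phosphorylation are protein-level events that transcript counts do not measure.

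The residue on which these enzymes act lies in exon 2 of the 8 exons of EIF2S1, at chr14:67364897-67364947 on the plus strand of hg38. It is shown because all 4 kinases and both phosphatase subunits meet there. Capitals mark the serine codon, number 52 of 315 counting the initiator methionine and 51 without it, as the site is usually named.
EIF2S1, exon 2: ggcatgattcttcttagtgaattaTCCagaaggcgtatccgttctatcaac

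Promoters from 250 bases before to 50 after the RefSeq start (GRCh38.p14) were searched on both strands for stress and interferon motifs. RefSeq entries matched 9 of the 10 genes, all but EIF2AK1. Counted over 35116 promoters, the share with a match was 3.62% for the C/EBP-ATF response element TGATGNAA, 1.85% for the cAMP response element TGACGTCA, 7.98% for its shorter core TGACGT, which the full element contains, 3.57% for an interferon-stimulated response element (GAAA, 2 free bases, GAAA), 0.0769% for the endoplasmic reticulum stress element (CCAAT, 9 free bases, CCACG) and 0.0541% for its second form (ATTGG, 1 free base, CCACG). Of these 9 genes, PPP1R15B and EIF2AK2 held matches, and those in PPP1R15A stand beside them because it is the paralog of PPP1R15B. Capitals mark the matched letters, and each window is 30 bases on the gene's own strand.
PPP1R15B, chr1:204412026-204412055, minus strand, match at -227 to -220 from the start: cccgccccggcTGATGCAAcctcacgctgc
PPP1R15B, chr1:204411901-204411930, minus strand, match at -101 to -96: ggattttgcgagTGACGTtgggcggcgcgg
PPP1R15A, chr19:48872257-48872286, plus strand, match at -152 to -147: gaaactccgccgTGACGTtgcaaaagctgg
PPP1R15A, chr19:48872352-48872381, plus strand, match at -58 to -51: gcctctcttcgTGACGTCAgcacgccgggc
EIF2AK2, chr2:37156967-37156996, minus strand, match at -6 to 4: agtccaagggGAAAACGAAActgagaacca
None of these letters were found in the windows of EIF2AK4, EIF2S1, EIF2B1 to EIF2B5 or EIF2AK3. A match is a description of letters, not of a bound site.

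Libraries held 9741183 to 13733477 reads on genes and 21254 to 23259 genes with a read. They are named by condition and, for controls, by depth as the smallest, middle and largest control library. The reason is that only 2 low-glucose columns carry a replicate number, and the other 4 columns were placed by inference. Column names form 2 consecutive runs of 3, and the 2 labelled low-glucose columns open the second run. The deposited values are titled control, then low glucose, and control has 3 samples. The middle control library stood apart: its reads differed from those of the largest control library by a chi-square of 18.9 per gene, against 4.63 to 8.74 for the other control pairs and 1.90 to 2.89 between low-glucose libraries. The markers KRT8, KRT18 and VIM, of an epithelial line with mesenchymal features, had 13896 to 107058 reads in every library, whereas PTPRC of leukocytes, PRSS1 and CPA1 of acinar cells and INS of beta cells were at 0 and PECAM1, COL1A1 and COL3A1 had at most 35 reads. The values below are normalized read counts, that is reads scaled by each library's own size factor, and differences are log2(value + 1), low glucose minus control.

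EIF2S1 fell in low glucose and was the gene among the 10 with the largest difference. PKR and GCN2 fell by less, with calls close to the threshold. HRI, CReP and the 5 eIF2B subunits did not pass the test. None of the 10 rose, while PERK and GADD34 both more than doubled.

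In limma's test at an adjusted p of 0.05, 3 of the 10 genes were lower, 0 were higher and 7 were not called, against 16.2% of the 21101 genes tested that were called lower and 14.7% called higher. Every one of the 10 had a mean above 200, and among the 8030 genes with at least that mean, a comparison added after the data were seen, 33.9% were called lower. The share of the 10 is therefore near the background of equally well measured genes. Of the 10, 9 had a difference below 0, beside 46.4% of all genes tested and 61.6% of the 8030. The median of the 10 was -0.20, beside 0.05 over all genes tested and -0.11 over the 8030. In 8 of the 10 every low-glucose library lay below every control library, which held for 21.8% of all genes tested and for 41.2% of the 8030. By edgeR 21.9% of the genes it tested were lower and by DESeq2 17.7%, and of the 10 genes both called EIF2S1 and EIF2AK2 and no other. In these bulk samples fewer cells of a kind and less RNA per cell cannot be told apart.

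**Figure D1:**
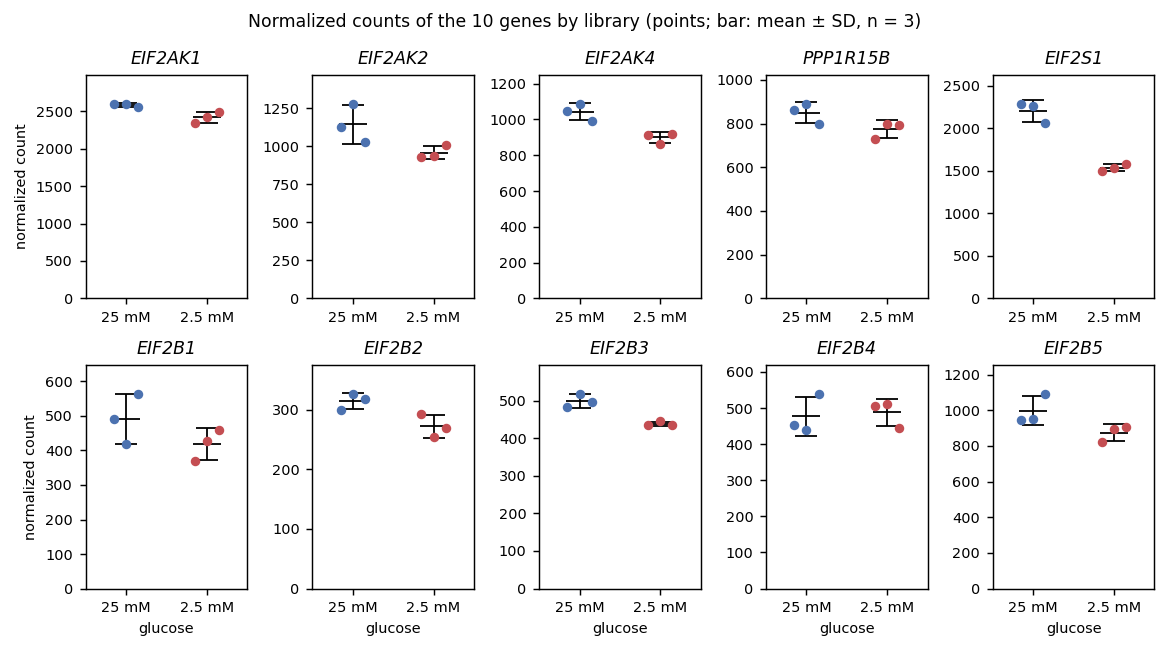
Normalized read count (vertical axis) of each of the 10 genes in the 3 control and 3 low-glucose libraries, with 1 point per library, bars for the mean and SD (n = 3) and axes that start at 0. EIF2S1 shows the widest gap, from 2057.4 in the lowest control library to 1584.4 in the highest low-glucose library, and the conditions overlap for EIF2B1 and EIF2B4.

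EIF2S1 (ENSG00000134001.13, chr14:67360328-67386516, plus strand), the regulatory subunit of eIF2, had 2289.2, 2267.1 and 2057.4 normalized read counts in the smallest, middle and largest control library and 1492.9, 1538.1 and 1584.4 in low glucose replicate 1, replicate 2 and the third low-glucose library. All low-glucose values lay well under the lowest control value. The mean fell from 2205 ± 128 to 1538 ± 45.7 (SD, n = 3 each), a log2 difference of -0.52 (SE 0.0752, 95% interval -0.68 to -0.36, limma adjusted p = 0.000126). The call held in 17 of 17 alternative analyses, with differences from -0.57 to -0.31, the smallest under quantile normalization.

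The partners of eIF2alpha in the complex did not show the same difference. EIF2S2, the beta subunit, had a mean of 3990 in control and 3978 in low glucose (log2 difference -0.0037, 95% interval -0.16 to 0.15, limma adjusted p = 0.977), and its sign changed with the scaling. EIF2S3, the gamma subunit that binds GTP and the tRNA, had a log2 difference of -0.19 (95% interval -0.41 to 0.02, limma adjusted p = 0.164), with a control range of 6170.2 to 8511.0 that spanned all low-glucose values, and it was called in 1 of 17 alternatives. The value rested on single control libraries, at -0.31 without the largest (adjusted p = 0.00534) and -0.08 without the middle one (0.362). Within each library the log2 ratio of EIF2S1 to EIF2S2 averaged -0.86 ± 0.14 in control and -1.37 ± 0.0494 in low glucose, and that of EIF2S1 to EIF2S3 -1.72 ± 0.170 and -2.04 ± 0.0360 (SD, n = 3 each). Neither ratio overlapped between conditions. Both were chosen after the values were seen and are given without a test.

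Together with 4 further genes of the eIF2 cycle, EIF2S2 and EIF2S3 made a list of 6, of which 3 were called lower and 0 higher, with a median of -0.32. Over all genes tested, 16.2% were lower and 14.7% higher. All 6 belong to the 8030 genes whose mean reached 200, of which 33.9% were lower, with a median of -0.11. CDC123, an assembly factor of the eIF2 complex, fell by 0.45 on the log2 scale (limma adjusted p = 0.00048), and BZW1 and BZW2, mimics of eIF5 that compete with it, fell by 0.67 and 0.46. EIF5, which triggers GTP hydrolysis by eIF2, had a difference of -0.10 (limma adjusted p = 0.326).

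Among the kinases of the set, EIF2AK1 (HRI, ENSG00000086232.13, chr7:6022247-6059175, minus strand) varied least. Its control values were 2601.9, 2602.6 and 2552.8 and its low-glucose values 2349.0, 2421.2 and 2497.4. The low-glucose libraries were all lower, by a margin smaller than the spread within that condition. The means were 2586 ± 28.5 and 2423 ± 74.2 (SD, n = 3 each), and the log2 difference of -0.09 (SE 0.0703, 95% interval -0.24 to 0.06, limma adjusted p = 0.341) did not pass and became positive, at 0.09, under quantile normalization. EIF2AK1 shares 532 exonic bases with AIMP2 on the other strand, a scaffold of the multi-tRNA synthetase complex. AIMP2 had 629 to 683 unscaled reads under control and 797 to 998 under low glucose conditions, which includes the difference in library depth. The processed pseudogene EIF2AK1P1 had 5 to 9 reads.

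EIF2AK2 (PKR, ENSG00000055332.18, chr2:37099210-37157522, minus strand) had 1124.4, 1278.4 and 1027.1 normalized read counts in control and 925.4, 936.5 and 1004.7 in low glucose. The conditions did not overlap, but the largest control library and the third low-glucose library were close, and the middle control library was the highest. The mean fell from 1143 ± 127 to 956 ± 43.0 (SD, n = 3 each), a log2 difference of -0.25 (SE 0.0893, 95% interval -0.44 to -0.06, limma adjusted p = 0.0429). The call held in 7 of 17 alternatives, with adjusted p from 0.0049 to 0.417, and was lost without the smallest control library (0.103), the middle control library (0.0723), low glucose replicate 1 (0.163), replicate 2 (0.149) or the third low-glucose library (0.0746). On the other strand it shares 401 exonic bases with the pseudogene ARL14EPP1, which had 37 to 58 reads, and 35 with GPATCH11.

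EIF2AK4 (GCN2, ENSG00000128829.12, chr15:39934115-40035591, plus strand) had 1049.3, 1087.8 and 992.9 in control and 913.8, 865.3 and 919.9 in low glucose, again with no overlap. Its mean fell from 1043 ± 47.8 to 900 ± 29.9 (SD, n = 3 each), a log2 difference of -0.21 (SE 0.0773, 95% interval -0.38 to -0.05, limma adjusted p = 0.0493). The call held in 6 of 17 alternatives, with adjusted p from 0.0193 to 0.620, and was lost without the smallest control library (0.128), low glucose replicate 1 (0.117), replicate 2 (0.194) or the third low-glucose library (0.104), as well as in DESeq2 (0.0725) and edgeR (0.0562).

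EIF2AK3 (PERK) moved the other way, from 163.7, 140.4 and 150.9 in control to 415.6, 326.0 and 381.9 in low glucose. It rose by 1.29 on the log2 scale (SE 0.118, limma adjusted p = 2.21e-06), and the lowest low-glucose library lay far above the highest control library. A transcript on its other strand, ENSG00000225420, shares 781 exonic bases. Its unscaled reads numbered 30 to 47 in the control libraries and 90 to 130 in the low-glucose libraries. The labels name a strand-specific kit, but the strand setting of the counting is not given in the sources used here, so reads of such pairs may have been exchanged.

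**Figure D2:**
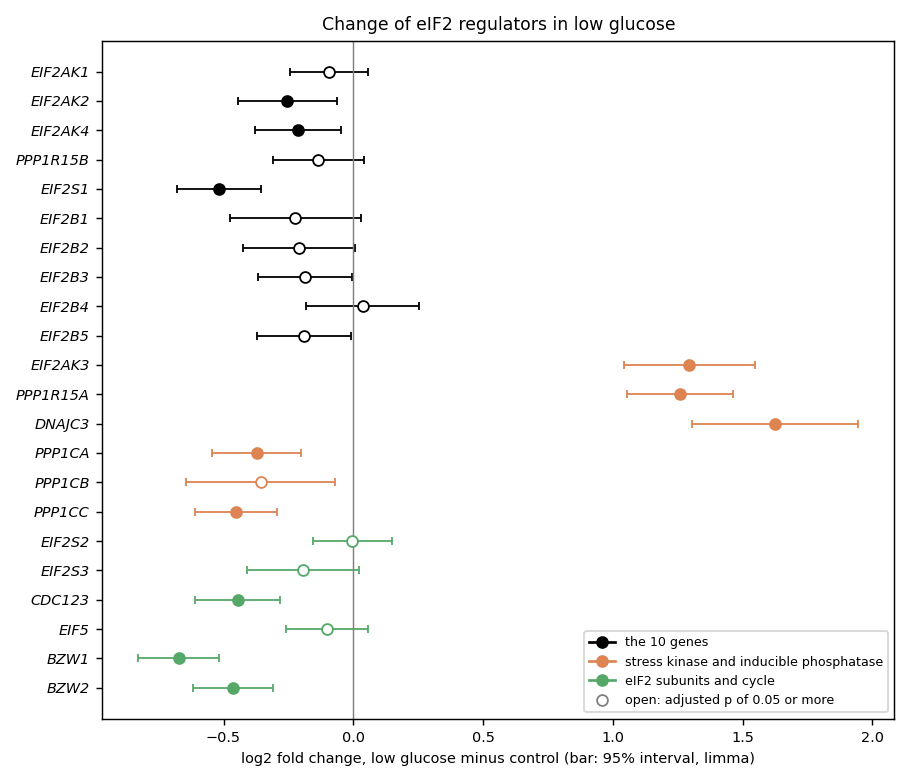
Log2 difference, low glucose minus control (horizontal axis), of the 10 genes and of the comparison genes, with points for the estimate (open where the limma adjusted p was 0.05 or more) and bars for the 95% interval. EIF2S1 at -0.52 lies farthest below 0 among the 10, whose other estimates run from -0.25 to 0.04, while EIF2AK3 (1.29), PPP1R15A (1.26) and DNAJC3 (1.63) lie above 0.

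Set against each other per length, the 4 kinases were unequal in abundance. Divided by the merged exon length of each gene, HRI made up 70.4% ± 1.40 of the summed kinase level in control libraries and 71.0% ± 0.745 in low glucose (SD, n = 3 each, exact permutation test, p = 0.6). PKR held 15.5% ± 1.27 and 13.9% ± 0.227, GCN2 13.0% ± 0.213 and 12.1% ± 0.402, and PERK 1.10% ± 0.0986 and 2.92% ± 0.370. Each of these 3 shares separated the conditions completely. The p of 0.1 was the smallest that 3 against 3 libraries allow in a two-sided exact permutation test. Adjusted over the 10 within-library measures, none was below 0.25. The 4 shares are parts of 1 total in each library, so a rise in 1 lowers the sum of the others and the tests are not independent. The shares depend on length: with the longest coding transcript in place of the merged exons, which changes PERK from 20691 to 4724 bases, PERK held 3.49% and 8.95%, the direction for HRI turned, from 63.7% to 62.0%, and GCN2 (20.5% and 18.3%) stood above PKR (12.3% and 10.7%) instead of below it. Transcript share says nothing of kinase protein or activity.

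**Figure D3:**
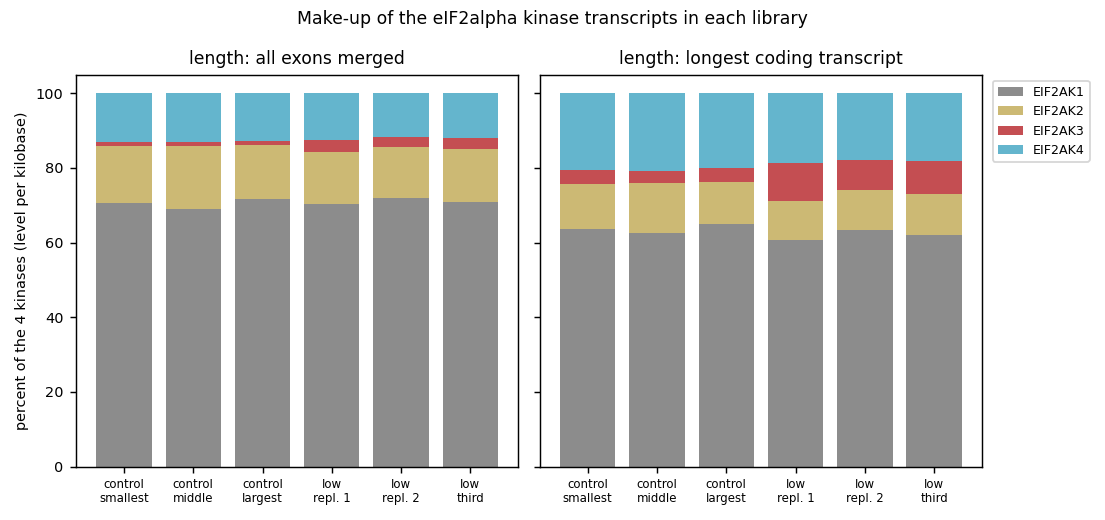
Percent share of each eIF2alpha kinase in the summed level per kilobase (vertical axis, stacked from 0 to 100) in each of the 6 libraries, with merged exons as the length on the left and the longest coding transcript on the right. The mean PERK (EIF2AK3) share goes from 1.10% in control to 2.92% in low glucose on the left and from 3.49% to 8.95% on the right.

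PPP1R15B (CReP, ENSG00000158615.9, chr1:204396492-204411887, minus strand) had 859.8, 890.6 and 799.2 normalized read counts in control and 728.2, 799.2 and 794.8 in low glucose. The lowest control and the highest low-glucose value were equal at the 1 decimal shown, the control value being the higher before rounding. The means were 850 ± 46.5 and 774 ± 39.8 (SD, n = 3 each), with a log2 difference of -0.13 (SE 0.0820, 95% interval -0.31 to 0.04, limma adjusted p = 0.238), which did not pass.

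Its paralog PPP1R15A (GADD34) had 437.2, 368.9 and 453.6 in control and 1056.2, 1020.4 and 932.7 in low glucose, and rose by 1.26 on the log2 scale (SE 0.0957, limma adjusted p = 4.43e-07). CReP was thus the more counted of the pair in every control library and the less counted in every low-glucose library. The log2 ratio of PPP1R15A to PPP1R15B was -0.97, -1.27 and -0.82 in control and 0.54, 0.35 and 0.23 in low glucose. Its mean moved from -1.02 ± 0.230 to 0.37 ± 0.154 (SD, n = 3 each), a difference of 1.39, at the smallest p the exact permutation test allows (two-sided p = 0.1, adjusted 0.25).

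Subunits of the phosphatase itself and a kinase inhibitor completed the comparison list. Of its 6 genes, 3 were called higher and 2 lower, with a median of 0.45. Over all genes tested, 14.7% were called higher and 16.2% lower, and 33.9% were lower among the 8030 with a mean of at least 200. DNAJC3 (p58IPK), a chaperone described as an inhibitor of PKR and PERK, rose by 1.63 on the log2 scale, from a mean of 286.6 to 869.5. PPP1CA and PPP1CC, catalytic subunits of protein phosphatase 1, fell by 0.37 and 0.45. PPP1CA was not called under quantile normalization (-0.16, limma adjusted p = 0.143) or with no variance trend (0.0552). PPP1CB had a difference of -0.36 that did not pass in limma (adjusted p = 0.0555) and passed in 3 of 17 alternatives, namely DESeq2 (0.0234), edgeR (0.0463) and limma without the largest control library (-0.54, 0.000316). Without the middle control library it was -0.17 (0.0979), and under quantile normalization also -0.17 (0.324).

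The 5 eIF2B subunits showed small differences, none of which passed. Alpha, beta and delta (EIF2B1, EIF2B2, EIF2B4) form the regulatory part that senses phosphorylated eIF2, and gamma and epsilon (EIF2B3, EIF2B5) the catalytic part.

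EIF2B1 (ENSG00000111361.13, chr12:123620406-123633766, minus strand) had 489.9, 418.0 and 563.8 in control and 368.4, 428.7 and 459.2 in low glucose, so that the conditions overlapped through the middle control library. Its log2 difference was -0.22 (SE 0.117, 95% interval -0.47 to 0.03, limma adjusted p = 0.169). It shares 538 exonic bases on the other strand with DDX55, an RNA helicase gene with 446 to 630 reads, and 28 with GTF2H3.

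EIF2B2 (ENSG00000119718.11, chr14:75002921-75012366, plus strand) had 299.3, 326.6 and 317.8 in control and 292.4, 254.9 and 269.0 in low glucose. The conditions did not overlap, yet low glucose replicate 1 came close to the smallest control library. Its log2 difference was -0.21 (SE 0.10, 95% interval -0.42 to 0.00, limma adjusted p = 0.130).

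EIF2B4 (ENSG00000115211.15, chr2:27364352-27370338, minus strand) was the sole subunit with a positive difference. It had 452.9, 439.2 and 539.2 in control and 506.9, 511.7 and 445.5 in low glucose, fully interleaved, with a log2 difference of 0.04 (SE 0.101, 95% interval -0.18 to 0.25, limma adjusted p = 0.827). The sign turned, to -0.02, without the middle control library. GTF3C2-AS2 shares 199 exonic bases on the other strand. It had 227 to 262 unscaled reads in the control libraries and 323 to 465 in the low-glucose libraries. EIF2B4 itself had 394 to 504 and 518 to 588 unscaled reads, against normalized means of 477 and 488, so unscaled reads include library depth. The part of GTF3C2-AS2 in the EIF2B4 value was not tested.

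Of the catalytic pair, EIF2B3 (ENSG00000070785.17, chr1:44850522-44986722, minus strand) had 483.2, 518.3 and 497.5 in control and 434.8, 445.5 and 436.4 in low glucose. The gap was narrow but clear of overlap, with a log2 difference of -0.19 (SE 0.0844, limma adjusted p = 0.111). EIF2B5 (ENSG00000145191.15, chr3:184135038-184146127, plus strand), which carries the exchange activity, had 947.3, 953.0 and 1091.3 in control and 819.6, 894.0 and 906.2 in low glucose. Its low-glucose values were again all lower, with the same log2 difference of -0.19 (SE 0.0849, limma adjusted p = 0.107).

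Single control libraries decided calls within eIF2B. Without the middle one EIF2B1 (log2 difference -0.33, limma adjusted p = 0.00778) and EIF2B5 (0.0264) passed, EIF2AK2 no longer did, and 4 of the 10 genes were called lower. Without the largest one the differences were -0.12 for EIF2B1 (0.445) and -0.12 for EIF2B5 (0.261).

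Balance among the subunits, which assemble in equal numbers, was measured within each library as the log2 value of a subunit minus the mean of all 5. Between conditions this changed by -0.07 for EIF2B1 (exact permutation test, p = 0.6), -0.06 for EIF2B2 (0.6), -0.03 for EIF2B3 (0.7), 0.19 for EIF2B4 (0.2) and -0.04 for EIF2B5 (0.5). All 5 overlapped between conditions, and 3 libraries a side cannot reach 0.05 in this test. The mean includes the subunit itself, so the 5 deviations cancel in each library and the tests are not independent.

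**Figure D4:**
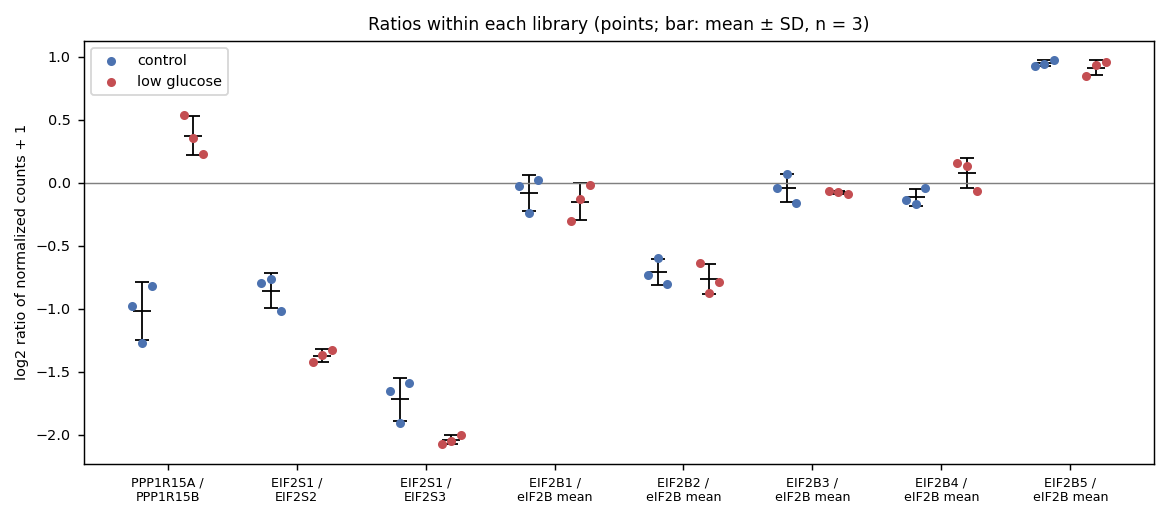
Log2 ratios formed within each library (vertical axis), for PPP1R15A over PPP1R15B, EIF2S1 over EIF2S2 and EIF2S3, and each eIF2B subunit against the mean of the 5, with 1 point per library by condition and bars for the mean and SD (n = 3). The phosphatase ratio runs from -1.27 to -0.82 in control and from 0.23 to 0.54 in low glucose, while the eIF2B ratios overlap.

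Levels of different genes were compared per kilobase of the longest coding transcript, as control means. EIF2S3 (2111) and EIF2S2 (1561) stood above EIF2AK1 (586 ± 6.47) and EIF2S1 (531 ± 30.8), and eIF2alpha was thus the least abundant eIF2 subunit transcript. EIF2B5 (340 ± 27.8) followed, then EIF2B3 (260 ± 9.18), EIF2B4 (245 ± 27.8), EIF2B1 (205 ± 30.4) and EIF2AK4 (188 ± 8.62), each of which overlapped the next in this run. PPP1R15B (162 ± 8.84) came above PPP1R15A (129 ± 13.8) and EIF2AK2 (113 ± 12.5), which overlapped each other, and EIF2B2 (73.1 ± 3.23) and EIF2AK3 (32.1 ± 2.46) were lowest, each apart from its neighbors. In low glucose EIF2S1 stood at 370 ± 11.0 per kilobase, EIF2AK3 (79.3 ± 9.58) passed EIF2B2 (63.2 ± 4.41), and PPP1R15A moved from place 11 to place 5 of the 14. Much of this order rests on the length chosen. With merged exons EIF2B3 (146), EIF2B5 (138) and EIF2B1 (135) lay side by side in control. There the means of PPP1R15A (122) and EIF2AK2 (104) stood above those of PPP1R15B (91.0) and EIF2AK4 (87.0). The ranges of EIF2AK2 (93.1 to 116) and PPP1R15B (85.6 to 95.4) overlapped, as did those of PPP1R15B and EIF2AK4. EIF2AK3 stayed lowest in low glucose, at 18.1 against 50.1 for EIF2B2.

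Of the regulators of the kinases 3 of 8 were called higher and 3 lower, with a median of 0.14, beside 14.7% and 16.2% of all genes tested. These counts fell to 1 higher and 0 lower with no variance trend and to 1 higher and 2 lower without the third low-glucose library. GCN1, the ribosome-bound activator of GCN2, fell by 0.52 on the log2 scale (limma adjusted p = 0.00137), and IMPACT, which competes for GCN1 and restrains GCN2, rose by 0.60 (0.000126). ADAR, an editing enzyme that keeps double-stranded RNA from PKR, fell by 0.47 (0.00213). OMA1, the mitochondrial protease upstream of HRI, rose by 0.51 (0.00703). GCN1 and ADAR were highest in the middle control library, at 3827.5 and 4995.6, and without it their differences were -0.39 and -0.35, both still called.

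Factors that can place initiator tRNA without eIF2 showed 2 of 5 called higher, 1 lower and a median of -0.02. The counts were 1 higher and 0 lower under no variance trend, and 1 higher and 1 lower without the third low-glucose library. Background shares were 14.7% higher and 16.2% lower over all genes tested, and 33.9% lower among the 8030 with a mean of at least 200. EIF2A and EIF2D rose by 0.34 and 0.30 on the log2 scale, EIF5B, which joins the ribosomal subunits, fell by 0.65, and DENR, a partner of MCTS1 in reinitiation, had a difference of -0.20 (limma adjusted p = 0.071).

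Transcripts known to lie downstream of eIF2alpha phosphorylation were all called higher, 12 of 12, against 14.7% of all genes tested. Their median was 1.56 beside 0.05 over all genes. The log2 differences ran from 0.73 for PSAT1, a serine synthesis enzyme, and 1.04 for ATF4 to 2.84 for DDIT3 (CHOP) and 3.34 for NUPR1. NUPR1 rested on 8 to 17 control reads and 115 to 184 low-glucose reads. The list was chosen with earlier results of these data known, so the count is a description and not a separate test.

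Because PKR is itself an interferon-stimulated gene, 20 such genes were read beside it. Of the 19 tested, 3 were called higher, 5 lower and 11 not, with a median of 0.07, beside 14.7% higher and 16.2% lower over all genes. The split was 5 higher against 4 lower when libraries were scaled by their size, and leaving out low glucose replicate 1 or replicate 2 gave 2 higher and 3 lower. IFITM1 fell by 1.08 on the log2 scale and STAT2 rose by 0.59, whereas IRF7 (log2 difference -2.45), with 6 to 18 control reads and 0 to 4 low-glucose reads, and IRF9, at 7 to 24 reads, rest on few reads.

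**Figure D5:**
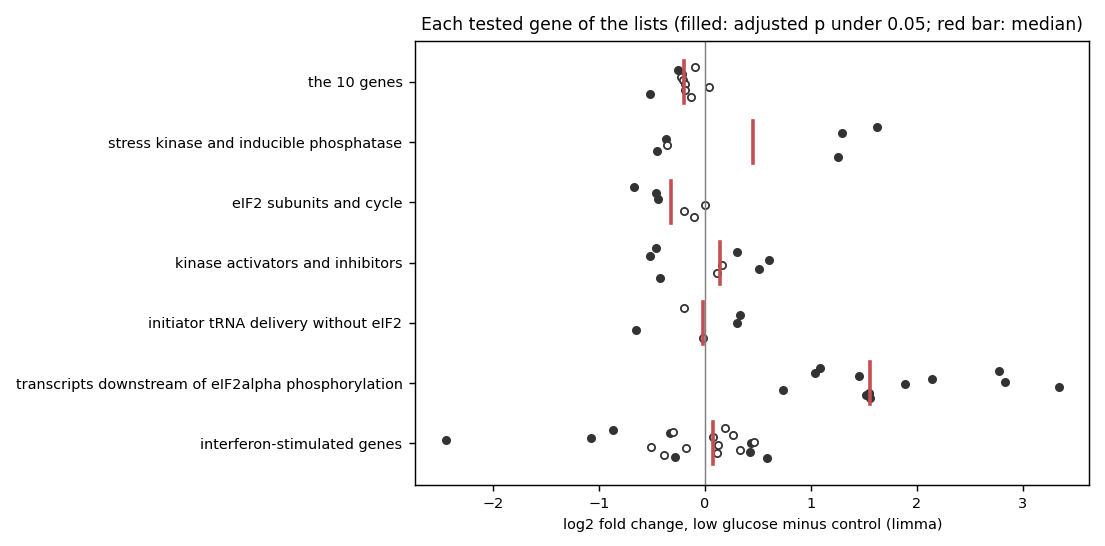
Log2 difference, low glucose minus control (horizontal axis), of every tested gene in each list (rows), with 1 point per gene, filled where the limma adjusted p was under 0.05, and a red bar at the list's median. The 10 genes have a median of -0.20, the genes downstream of eIF2alpha phosphorylation a median of 1.56 with all 12 above 0, and the interferon-stimulated genes a median of 0.07.

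Genes with the most similar pattern over the 6 libraries were sought among 9160 protein-coding genes with a mean of at least 100, by the root mean square difference of log2(value + 1) centered on each gene's mean. For EIF2S1 they were AKAP1 (0.0119) and IDH3A, for EIF2AK1 TCFL5 (0.0113) and PXN, for EIF2AK2 THRA (0.0169) and AP2A2, for EIF2AK4 NUP58 (0.0185) and RIMOC1, and for PPP1R15B OGFOD1 (0.0253) and PHF20L1. For the exchange factor they were ITM2B (0.0436) and TMEM79 with EIF2B1, NKIRAS2 (0.0293) and ATP6V0E2 with EIF2B2, PGGT1B (0.0143) and HRAS with EIF2B3, FUNDC2 (0.0274) and COPS5 with EIF2B4 and PIGX (0.0258) and MRPL9 with EIF2B5. With 1 library left out only 3 to 7 of these 20 neighbors were found again, so the names describe these 6 libraries and little more.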

How the data were processed

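Per the labels and the study's methods, libraries were made with a strand-specific kit, sequenced as paired reads, trimmed with Trim Galore and aligned with STAR 2.7.0e to hg38. RSEM is named in the study's software list, without saying for which step. The strand setting and annotation of the counting are not given in the sources used here. The authors deposited a signal per gene and library, read counts divided by DESeq2 size factors, and multiplying by the factor gave whole counts for 100% of values (tolerance 0.01). Libraries held 9741183 to 13733477 reads, which sets the counting precision.

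Values were tested as log2(value + 1) with limma 3.58.1 (variance trend, two-sided, Benjamini-Hochberg, 21101 genes whose mean was 1 or more, threshold 0.05). DESeq2 1.42.0 and edgeR 4.0.16 on the recovered counts, other scalings (library size, TMM, quantile), filters (none, a mean of 5, 10 reads in every library), a pseudocount of 0.1, no variance trend, mitochondrially encoded genes left out and each library left out in turn were alternatives. Scripts were tested on simulated data. Within-library ratios had exact permutation tests, adjusted over 10. Gencode 44 gave positions, lengths and 99.5% of symbols, and RefSeq the promoters.

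The genes and lists were chosen with earlier results of these data known. Named are the 10 genes, the lists of PERK and GADD34 and of the eIF2 cycle in full, the 2 highest and 2 lowest genes of every other list, the 2 nearest genes in pattern, and genes sharing exonic sequence. The background of genes with a mean of at least 200, the eIF2 subunit ratios, the motif searches and the leave-outs of the nearest genes were added after seeing the data.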

Additional observations from a re-analysis of the deposited data

How the results depend on the processing

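No paired analysis was possible because replicate numbers were attached to only 2 of the 6 libraries. All genes called numbered 6528 (3111 higher, 3417 lower), and 4090 with no variance trend. With 1 library left out the count ran from 4319, without low glucose replicate 1, to 7251. Scaling by library size turned the split to 3935 higher and 2647 lower. Of the 10 eIF2 genes, 3 were called, but 1, EIF2S1, under library size, TMM, quantile normalization, no variance trend or a log2 difference of at least 0.5, and 1 to 4 with 1 library left out. Signs turned for EIF2AK1 (0.087) and EIF5 (0.070) with quantile normalization, for EIF2B4 (-0.021 without the middle control library, up to 0.127 without the largest), and for EIF2S2 with library size (0.077), TMM (0.0096), quantile normalization (0.22, adjusted p = 0.0299) and edgeR (0.018), and from -0.031 to 0.027 with 1 library left out. Against the mean of the eIF2B subunits, differences with 1 library left out ran from -0.15 to 0.0088 for EIF2B1, -0.12 to 0.00086 for EIF2B2 and -0.088 to 0.024 for EIF2B3. The change in the share of EIF2AK1 was 0.623 percentage points, -0.474 without division by length, -1.72 with the longest coding transcript, and -0.114 to 1.28 with 1 library left out. The cause was not tested, except that the length alternatives differ only in the divisor. With 3 libraries a condition, differences of the size seen for EIF2B (95% intervals from -0.47 to 0.25) remain unresolved. Scaling moved the median of genes with a mean of at least 20 from -0.02 to between -0.03 and 0.06.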
